A study of Homo sapiens with 16 samples.

Results

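The mRNAs of 10 regulators of the G1 phase of the cell cycle were followed in P493-6 cells, a human B cell line, at high and at medium MYC and with or without inhibition of N-myristoyltransferases. They are the D-type cyclins CCND2 and CCND3, their kinases CDK4 and CDK6, the E-type cyclins CCNE1 and CCNE2, the inhibitors CDKN1B (p27) and CDKN2C (p18), the pocket protein RB1 and the transcription factor E2F1. They were chosen by symbol from a table of 58051 gene identifiers, all 10 were found there, and all 10 were among the 13765 genes with a mean normalized count of at least 10 that entered the tests. All groups came from this 1 line, which carries a doxycycline-repressible MYC gene and an oestrogen-dependent form of the viral factor EBNA2. High MYC cells were kept in plain DMEM, and medium MYC cells had 0.1 µg/mL doxycycline and 1 µM beta-estradiol added 24 h ahead of treatment. Each MYC level was then split into 4 control libraries, given DMSO, and 4 inhibitor libraries, given 100 nM IMP1088, for 24 h. Because both additives were present only at medium MYC, effects of the MYC level, of doxycycline and of estradiol with EBNA2 cannot be told apart. The title asks how inhibition of N-myristoyltransferases, which attach myristate to the N-terminal glycine of proteins, plays out at different MYC levels.

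In G1, D-type cyclins bind CDK4 or CDK6, and E-type cyclins bind CDK2. These kinases phosphorylate RB1, which releases E2F factors such as E2F1 to switch on genes of DNA replication. CDKN2C blocks CDK4 and CDK6, and CDKN1B binds cyclin-CDK complexes and restrains CDK2 above all. In B cells CCND2 and CCND3 are the usual D-type cyclins, and MYC is known as an activator of CDK4 and CCND2 and as a repressor of CDKN1B in many cell types.

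Depth lay between 8755296 and 13858534 reads per library in the 14 libraries for which whole reads were taken as recovered. Medium MYC inhibitor replicates 2 and 4, where 1 read is worth close to 1 normalized count and recovery is not claimed, gave 10230260 and 9963011 in the same way. Genes listed above 0 numbered 18899 to 21081 per library. MYC, the gene whose level defines the groups, had normalized counts of 29693 to 34375 in high MYC controls and 904 to 1022 in medium MYC controls. With the inhibitor its values were 46843 to 48049 at high and 1328 to 1444 at medium MYC. All 10 B cell markers on the list had a mean of at least 10, and their summed level was 38739 to 48457 at high and 65021 to 75420 at medium MYC. Of the markers of other cells, 3 of 6 T cell, 2 of 6 monocyte or macrophage, 2 of 5 epithelial and 2 of 5 fibroblast genes reached that mean. DCN, KRT18 and MARCO were at 0 in every library. The fibroblast list summed to 68.1 to 134 at high and 497 to 650 at medium MYC, led by PDGFRB and COL1A1, the T cell list to 57.2 to 108 and 156 to 243, the monocyte or macrophage list to 58.1 to 86.1 and 121 to 173, and the epithelial list to 56.5 to 86.3 and 60.5 to 112. Their part in the results was not tested. The labels do not say that replicates were separate cultures, so p-values measure the spread between these libraries, which may be technical.

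Levels were compared between genes only after division by the length of the merged exons, as normalized counts per kilobase. Merged exons cover all annotated transcripts of a gene. Which transcripts were expressed was not tested, so orders and shares per length hold for this length only. In high MYC controls CCND2 was the most abundant of the 10 at 798 ± 5.71 per kilobase (SD, n = 4). CDK4 followed at 508 ± 13.3, RB1 at 352 ± 20.2 and E2F1 at 268 ± 24.4 per kilobase. The remaining cyclins and CDK6 lay lower, with CDK6 at 70.4 ± 3.37, CCND3 at 47.0 ± 3.89, CCNE2 at 32.4 ± 1.94 and CCNE1 at 27.4 ± 2.15 per kilobase. The inhibitors closed the order, CDKN1B at 6.50 ± 1.04 and CDKN2C at 5.19 ± 1.07 per kilobase, and these were the only neighbours in that group whose library values overlapped. In medium MYC controls CCND2 stood at 1900.5 ± 11.6 per kilobase and CDK4, RB1 and E2F1 kept ranks 2 to 4, at 382 ± 4.13, 297 ± 12.5 and 177 ± 8.61. CDK6, at 34.4 ± 1.48 per kilobase, stood there below CCND3 (75.8 ± 5.71), CCNE2 (55.8 ± 4.06) and CCNE1 (53.9 ± 8.73), whereas at high MYC it had been above all 3. With the inhibitor, CDKN1B reached 37.0 ± 4.67 per kilobase at medium MYC, where its library values overlapped those of CCNE1 and CDK6.

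**Figure D1:**
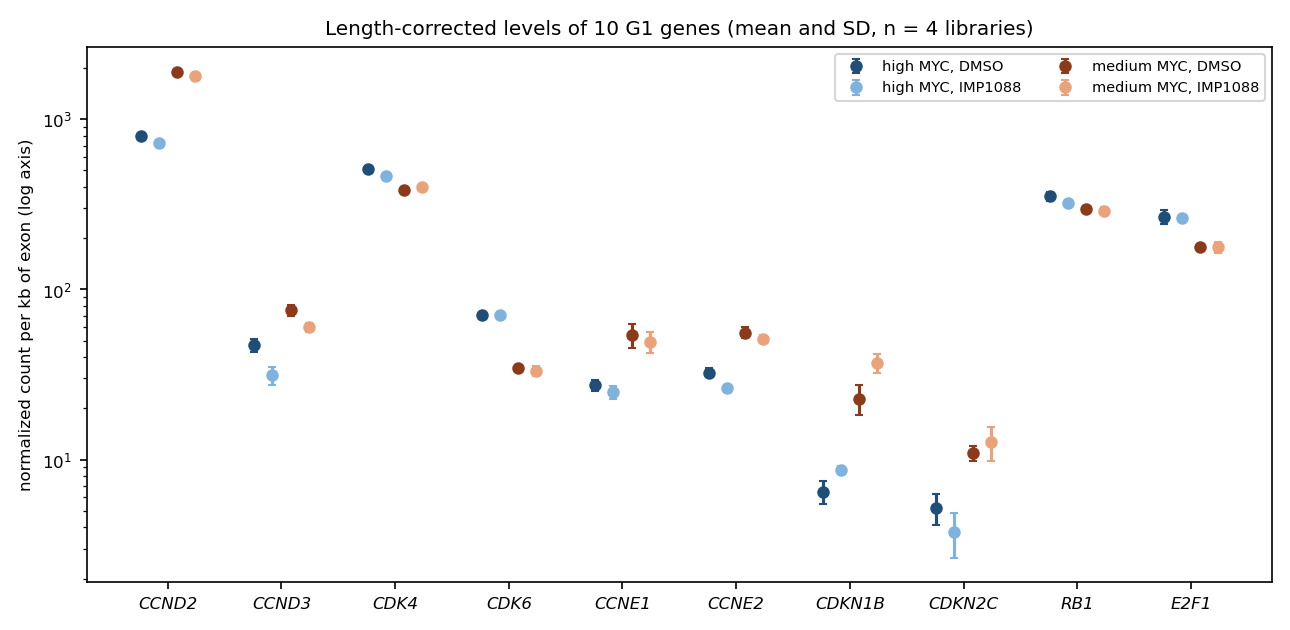
Normalized count per kilobase of merged exon (y, log axis) for the 10 genes (x) in the 4 groups; points are means and bars the SD of 4 libraries. CCND2 is highest in every group (798 in high and 1900.5 in medium MYC controls), CDK6 falls below CCND3 and the E-type cyclins at medium MYC, and CDKN1B and CDKN2C lie lowest in both high MYC groups.

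The first comparison asked how the G1 genes differed between medium and high MYC. Among controls all 10 passed the test, 6 higher and 4 lower at medium MYC, on a background in which 76.2% of tested genes passed (38.9% higher and 37.3% lower). The groups did not overlap for any of the 10, as for 69.2% of tested genes. Under the inhibitor, again 6 were higher and 4 lower, on a background of 77.5% (39.7% higher and 37.8% lower), and the groups did not overlap for 9 of 10, against 72.6% of tested genes. The count of 10 is therefore not far from what most genes did. Every cyclin and both inhibitors were higher at medium MYC, and both kinases, RB1 and E2F1 were lower. The test throughout was limma on log2(normalized count + 1) with Benjamini-Hochberg adjustment over the 13765 genes, called at an adjusted p under 0.05, and every log2 change is on that scale. In bulk RNA, fewer cells of a kind and less RNA per cell cannot be told apart. Normalized counts are relative to the other RNA of the same library. No measure of total RNA per cell was used, so higher and lower here do not refer to amounts per cell.

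CCND2 (ENSG00000118971, GRCh38 chromosome 12, 4273772 to 4305350) had normalized counts of 5675, 5702, 5708 and 5771 in high MYC controls and of 13655, 13478, 13635 and 13639 in medium MYC controls. Every medium MYC library was above every high MYC library, and the spread within groups was small. The log2 change was 1.25 (SE 0.02, limma adjusted p 1.47e-21), or 2.38-fold. Its paralogue CCND3 (ENSG00000112576, chromosome 6, 41934933 to 42050357) had 298, 281, 267 and 245 in high MYC controls and 398, 431, 476 and 454 in medium MYC controls. These groups were also apart, with a log2 difference of 0.69 (SE 0.08, limma adjusted p 1.12e-07). CCND1, the D-type cyclin of most non-lymphoid cells, had at most 1 read in any high MYC library and 5 to 15 reads in the medium MYC libraries with recovered reads, and was too low to be tested. CCND2 therefore made up 94.4% ± 0.48 of D-type cyclin mRNA per length in high MYC controls and 96.1% ± 0.30 in medium MYC controls (SD, n = 4). Merged exons of CCND2 share 1115 bases with CCND2-AS1 on the opposite strand and AC008012.1 on the same strand. Whether counting used strand is not given in the sources used here, and strand would not separate AC008012.1 from CCND2. CCND2 is therefore reported as uncertain to that extent. The count assigned to CCND2-AS1 was at most 1 read in any of the 14 libraries with recovered reads, and the level of AC008012.1 is not given here.

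CDK6 (ENSG00000105810, chromosome 7, 92604921 to 92836594) fell most among the 10. Its normalized counts were 823, 848, 920 and 861 in high MYC controls and 404, 436, 409 and 439 in medium MYC controls. With no overlap between the groups, the log2 change was -1.03 (SE 0.05, limma adjusted p 5.72e-14) among controls and -1.09 (SE 0.05, limma adjusted p 1.89e-14) under the inhibitor. CDK4 (ENSG00000135446, chromosome 12, 57747727 to 57756013) had 1585, 1579, 1671 and 1608 in high MYC controls and 1197, 1229, 1210 and 1206 in medium MYC controls. That smaller fall was -0.41 (SE 0.03, limma adjusted p 2.67e-10). Merged exons of CDK4 share 1369 bases with TSPAN31 on the opposite strand, so CDK4 is reported as uncertain. TSPAN31 was listed at 78.3 to 105 in high MYC controls and at 223 to 254 in medium MYC controls, so it was higher where CDK4 was lower.

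The canonical E-box, CACGTG, is the motif bound by MYC with MAX. It was looked for in the 250 bases before each start site in a RefSeq table (GRCh38.p14) that lists 8 of the 10 genes in 13 windows. CCND2 and CCNE2 have no window there and were not searched. The only RB1 window, chr13:48476200-48476449, lies inside the gene, which starts at 48303726. All windows of CCND3, CDK4 and CDKN1B also lie inside their genes as GENCODE release 29 annotates them. For these genes and RB1 the bases before the annotated gene start were not searched either. CACGTG reads the same on both strands, and 6.34% of the 35116 windows in the table hold it. Among the genes studied here it occurred in the windows of CDK4 and CDKN2C. The CDK4 window holds 3 of them, counted back from the start site on the minus strand. They are shown with 12 bases on either side, 5′ to 3′, E-box in capitals, because MYC differs between the groups and CDK4 was lower at medium MYC. A match describes the letters and shows no binding.
CDK4, first base at -216, chr12:57752509-57752538: atgtcaagcggtCACGTGtgatagcaacag
CDK4, first base at -196, chr12:57752489-57752518: atagcaacagatCACGTGgctgccatcgcc
CDK4, first base at -101, chr12:57752394-57752423: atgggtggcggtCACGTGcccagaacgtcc
The first 2 lie 20 bases apart, and the last 2 fall within an exon that GENCODE release 29 annotates as 5′ untranslated in longer CDK4 transcripts. CDKN2C, which was higher at medium MYC, has 1 E-box in each of 2 of its 3 windows on the plus strand of chromosome 1.
CDKN2C, first base at -220, chr1:50960513-50960542: gattgtgcacctCACGTGgttagtcacaca
CDKN2C, first base at -69, chr1:50970164-50970193: ttgctgaataatCACGTGtgaatcgagggg
The first of these lies outside annotated exons and the second in an annotated 5′ untranslated exon. So among the 8 genes with a window, CACGTG was present at 1 gene that was lower and 1 gene that was higher at medium MYC.

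E2F1 and RB1 were both lower at medium MYC. E2F1 (ENSG00000101412, chromosome 20, 33675683 to 33686404), the activator set free when RB1 is phosphorylated, had 676, 666, 594 and 743 in high MYC controls and 422, 471, 445 and 429 in medium MYC controls. Every medium MYC library was lower, and the log2 change was -0.59 (SE 0.06, limma adjusted p 2.09e-08), or 1.51-fold. RB1 (ENSG00000139687, chromosome 13, 48303726 to 48599436) had 2131, 2233, 2444 and 2286 in high MYC controls against 2004, 1924, 1808 and 1928 in medium MYC controls. Its fall of -0.25 (SE 0.05, limma adjusted p 4.98e-05) was the smallest among the 10. Of the genes with a listed window, E2F1 alone held the E2F motif, searched on both strands as TTTGGCGC, TTTCCCGC, TTTCGCGC and TTTGCCGC, which 2.79% of all windows hold. E2F1 has 2 matches on opposite strands, shown in capitals because this factor is known to act on its own promoter. The second begins at -20, in front of the start site.
E2F1, both matches, minus strand, chr20:33686394-33686422: tttcGCGGCAAAaaggaTTTGGCGCgtaa
E2F1, upstream part of the window outside annotated exons, with the match at -33 in capitals, chr20:33686406-33686635: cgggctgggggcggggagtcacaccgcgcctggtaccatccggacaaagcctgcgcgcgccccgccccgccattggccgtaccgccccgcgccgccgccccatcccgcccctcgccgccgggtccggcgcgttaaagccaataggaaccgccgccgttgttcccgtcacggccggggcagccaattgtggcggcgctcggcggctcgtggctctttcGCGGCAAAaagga

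The inhibitor genes were the least abundant of the 10 at high MYC. CDKN1B (ENSG00000111276, chromosome 12, 12715058 to 12722371) had normalized counts of 19.6, 21.3, 17.7 and 14.5 in high MYC controls, from 13 to 26 reads, and of 77.2, 60.8, 48.1 and 70.6 in medium MYC controls, from 55 to 86 reads. The groups were far apart, and the log2 difference of 1.75 (SE 0.16, limma adjusted p 2.15e-09), or 3.36-fold, was the largest among the 10. CDKN2C (ENSG00000123080, chromosome 1, 50960745 to 50974633) had 12.1, 18.0, 18.8 and 20.1 in high MYC controls and 40.7, 36.0, 35.9 and 32.0 in medium MYC controls. With as few as 16 reads per high MYC control library, its rise of 1.05 had a wider error (SE 0.22, limma adjusted p 2.21e-04). CDKN1B and CDKN2C have no exon in common with another annotated gene.

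Both E-type cyclins, which drive CDK2 late in G1, were higher at medium MYC. CCNE1 (ENSG00000105173, chromosome 19, 29811898 to 29824308) had 75.3, 65.1, 65.1 and 73.8 in high MYC controls and 154, 105, 140 and 150 in medium MYC controls, a log2 difference of 0.95 (SE 0.13, limma adjusted p 5.33e-07). CCNE2 (ENSG00000175305, chromosome 8, 94879770 to 94896678) had 148, 150, 131 and 141 against 266, 236, 226 and 254, a change of 0.78 (SE 0.07, limma adjusted p 2.91e-09). Neither pair of groups overlapped. Merged exons of CCNE2 share 1633 bases with INTS8 and AC087752.4 on the opposite strand, so CCNE2 is reported as uncertain. INTS8 was listed at 577 to 623 in high MYC controls, with 564 to 625 under the inhibitor, and at 652 to 735 in medium MYC controls, with 603 to 682 under the inhibitor.

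**Figure D2:**
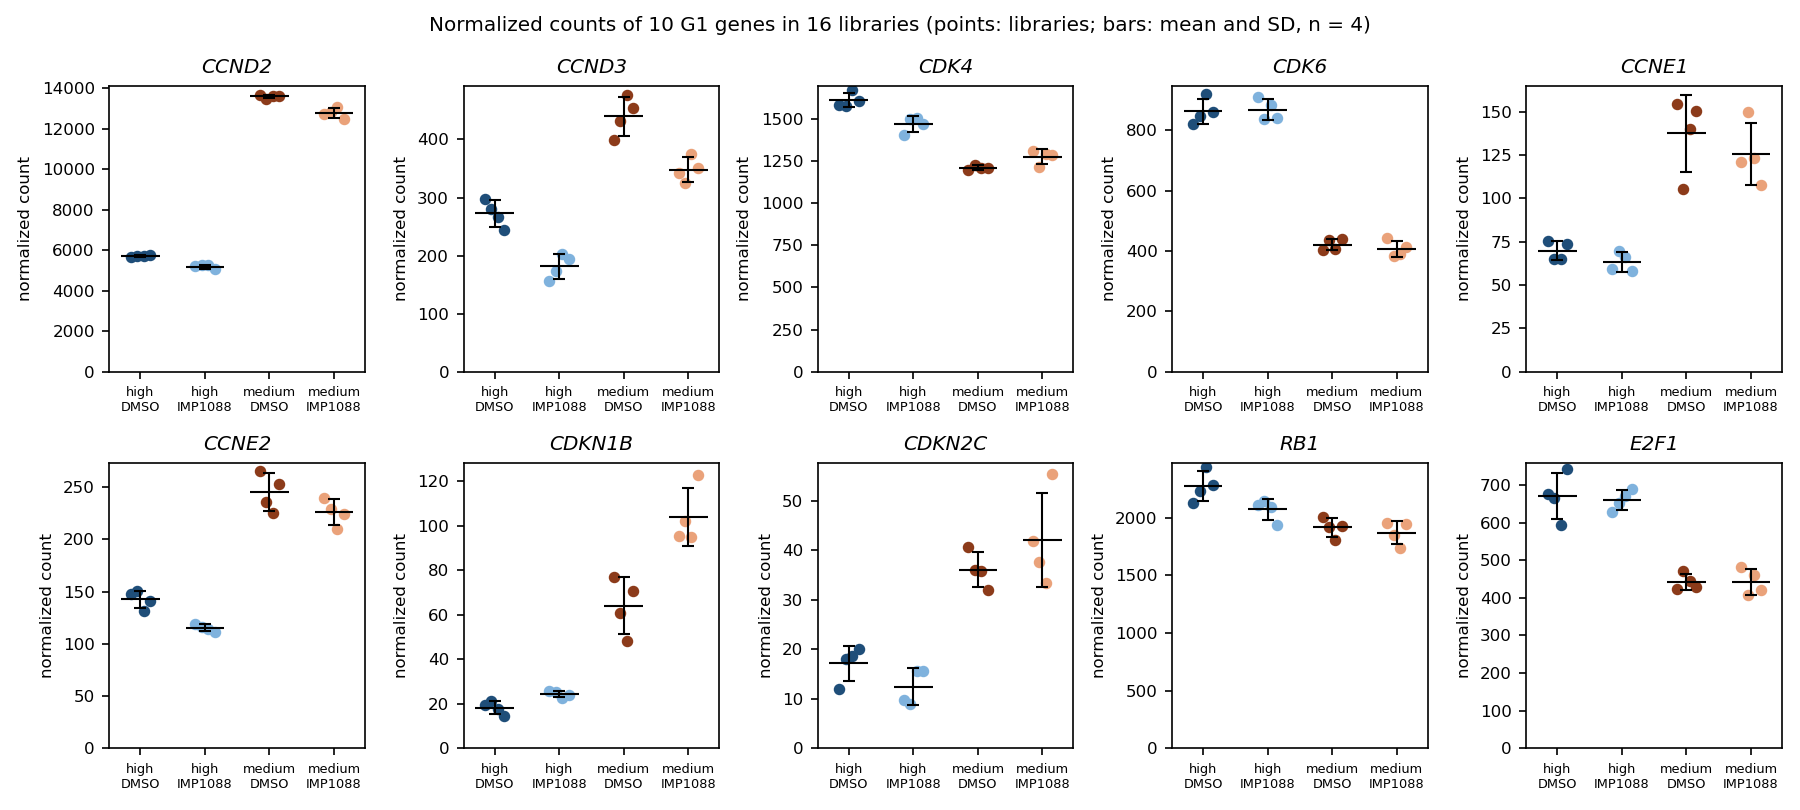
Normalized count (y, linear from 0) of each gene in the 16 libraries, grouped by MYC level and treatment (x); points are libraries and bars the mean and SD of 4. CCND2, CCND3, CCNE1, CCNE2, CDKN1B and CDKN2C sit higher in both medium MYC groups, CDK4, CDK6, E2F1 and RB1 sit lower, and for each gene the mean differs less between DMSO and IMP1088 at either MYC level than between the MYC levels among controls.

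The next comparison asked what IMP1088 did at high MYC. CCND2, CCND3, CCNE2, CDK4 and RB1 fell, 5 of 10, and none rose in limma, on a background of 26.8% of tested genes called (16.3% lower and 10.5% higher). Over all tested genes 1442 were higher and 2247 lower, and under quantile normalization 1727 and 1770. Of the 10, 1 (CDKN1B) was higher at an unadjusted p under 0.05, and edgeR and DESeq2 called none higher either. CCND3 had 156, 173, 203 and 194 with the inhibitor against 298, 281, 267 and 245 in controls. All treated libraries lay below all controls, and the fall was the largest of the 5 at a log2 difference of -0.59 (SE 0.08, limma adjusted p 1.19e-05). CCNE2 had 119, 116, 114 and 111 against 148, 150, 131 and 141, and fell by 0.30 on the log2 scale (SE 0.07, limma adjusted p 0.00364), again without overlap. CCND2 had 5222, 5256, 5263 and 5056 with the inhibitor, all below the lowest control of 5675, a change of only -0.14 (SE 0.02, limma adjusted p 1.02e-04).

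CDK4 had 1403, 1502, 1507 and 1469 with the inhibitor at high MYC, all under the lowest control of 1579, and fell by 0.13 on the log2 scale (SE 0.03, limma adjusted p 0.00529). This call was lost under quantile normalization (limma adjusted p 0.0534) and after a correction for GC content (0.125). For RB1 the groups overlapped, with 2114, 2145, 2095 and 1941 with the inhibitor against a lowest control of 2131. Its change of -0.13 (SE 0.05, limma adjusted p 0.0363) lost its call under 13 of 32 alternatives, among them without control replicate 2, 3 or 4 or inhibitor replicate 3 or 4 (limma adjusted p 0.0518 to 0.133). CDKN1B had 25.8, 25.5, 22.7 and 23.9 with the inhibitor against 14.5 to 21.3 in controls. Although these groups did not overlap, as for 26.7% of tested genes, its log2 change of 0.41 did not pass (SE 0.16, limma adjusted p 0.0630). It passed without the mean trend (0.0444), without high MYC control replicate 2 (0.0440) and without medium MYC control replicate 3 (0.0462). CDKN2C (-0.46, 95% interval -0.92 to 0.0060), CCNE1 (-0.14, -0.40 to 0.12), E2F1 (-0.016, -0.15 to 0.12) and CDK6 (0.010, -0.097 to 0.12) did not pass either, and their groups overlapped.

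At medium MYC 3 of the 10 were called with the inhibitor, CDKN1B higher and CCND2 and CCND3 lower. This count was near the background of 26.3% of tested genes called (11.7% higher and 14.6% lower). CDKN1B had 95.5, 102, 95.0 and 123 with the inhibitor against 77.2, 60.8, 48.1 and 70.6 in controls. Every treated library was above every control, and the log2 change was 0.70 (SE 0.16, limma adjusted p 0.00228), or 1.63-fold. CCND3 had 343, 325, 375 and 351 against 398 to 476 in controls, a change of -0.33 (SE 0.08, limma adjusted p 0.00364). CCND2 had 12719, 12821, 13067 and 12470 against a lowest control of 13478, a change of -0.091 (SE 0.02, limma adjusted p 0.00426). None of these 3 pairs of groups overlapped, as for 27.9% of tested genes.

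The small change in CCND2 at medium MYC was not called with equal library totals (limma adjusted p 0.0567), nor under quantile normalization (0.154), nor on 14 libraries by edgeR (adjusted p 0.115), DESeq2 (0.0729) or limma (0.0689). DESeq2 on these 14 libraries, with only 2 in the medium MYC inhibitor group, gave CDKN1B 0.58 with an adjusted p of 0.0565 there, and limma on those 14 gave 0.58 with 0.0547 and left CCND3 uncalled as well (0.0563). CDK4 had 1312, 1213, 1293 and 1284 with the inhibitor at medium MYC and 1197 to 1229 in controls, a change of 0.074 that did not pass (SE 0.03, limma adjusted p 0.110). It passed as a rise with equal library totals (0.0323), under quantile normalization (0.0295), after GC correction (0.0188) and without inhibitor replicate 2 (0.0435). The other 6 genes did not pass and their groups overlapped, but RB1, at -0.035, was called lower after GC correction (-0.083, limma adjusted p 0.0378). Their log2 changes ran from -0.12 in CCNE1 and CCNE2 to 0.20 in CDKN2C, whose 95% interval was -0.26 to 0.66.

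Whether the response to the inhibitor depended on the MYC level was tested as the difference between the responses, high minus medium MYC. Of the 10, only CDK4 passed, on a background of 8.63% of tested genes (3.31% higher and 5.33% lower). Its response was -0.13 at high and 0.074 at medium MYC, a difference of -0.21 (SE 0.05, limma adjusted p 0.00686). The difference passed in every alternative run, with adjusted p from 0.00348 to 0.0258. TSPAN31, which overlaps CDK4, was listed at 76.5 to 86.3 with the inhibitor at high MYC and at 253 to 272 at medium MYC, against 78.3 to 105 and 223 to 254 in the respective controls. CCND3, with -0.59 and -0.33, had a difference of -0.25 that did not pass (95% interval -0.49 to -0.012, limma adjusted p 0.205). For CDKN1B, called at medium MYC alone, the difference was -0.29 (-0.76 to 0.19, limma adjusted p 0.517), so its responses are not shown to differ. CDKN2C had the widest interval, a difference of -0.65 (-1.30 to 0.00049, limma adjusted p 0.236). For E2F1 and CCNE1 the differences were -0.017 (-0.20 to 0.17) and -0.014 (-0.38 to 0.36).

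**Figure D3:**
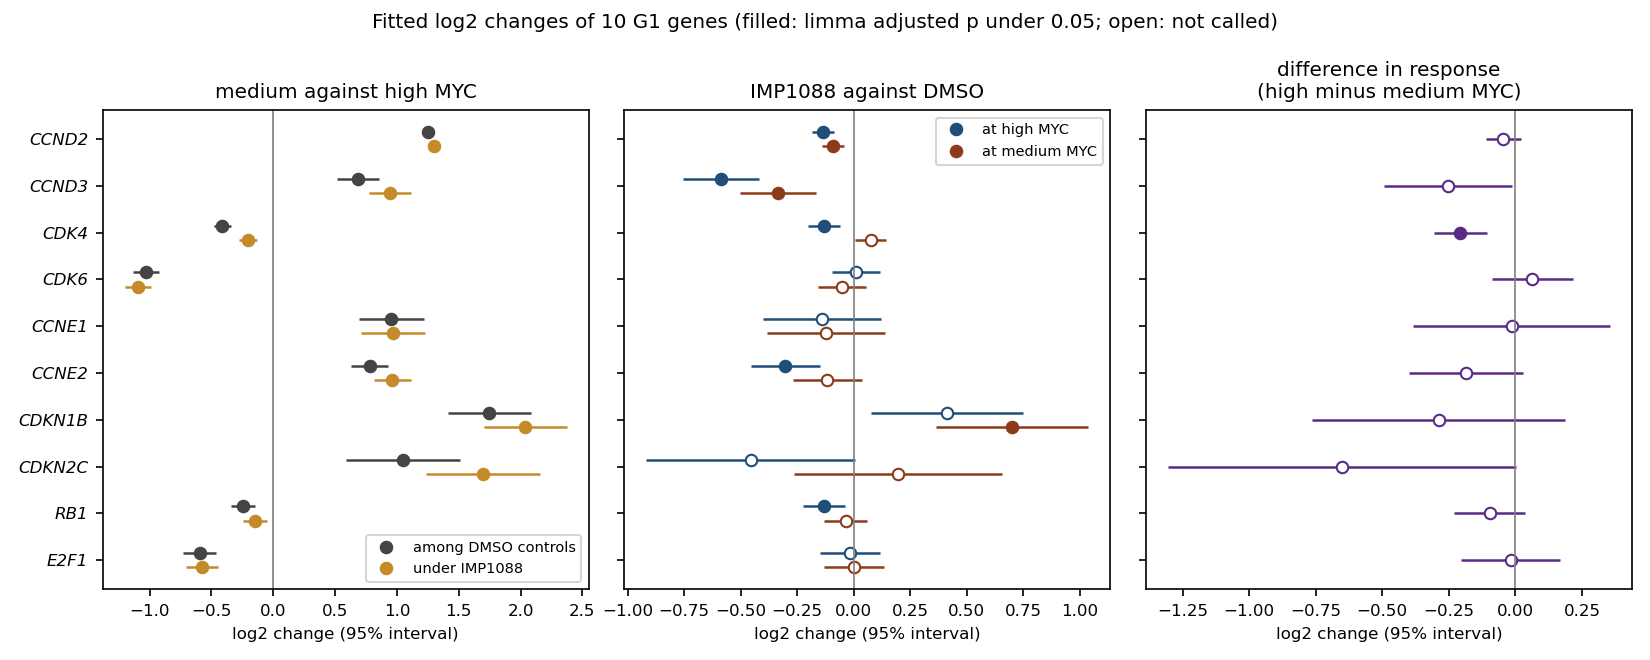
Fitted log2 change with 95% interval (x) for each gene (y): medium against high MYC (left), IMP1088 against DMSO (middle) and the difference in response, high minus medium MYC (right); filled points passed at a limma adjusted p under 0.05. In the left panel all points are filled, from CDK6 at -1.03 to CDKN1B at 1.75 among controls; in the middle panel only CDKN1B at medium MYC is filled above 0; in the right panel only CDK4 is filled, at -0.21. The 3 panels have different x ranges, and the comparisons share libraries.

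Under the inhibitor the differences between MYC levels followed from the values above, since the 4 comparisons share groups. The largest was in CDKN1B, with 95.0 to 123 at medium against 22.7 to 25.8 at high MYC, a log2 difference of 2.04 (SE 0.16, limma adjusted p 1.61e-10) beside 1.75 among controls. CDKN2C had 41.9, 37.7, 33.4 and 55.5 against 9.68, 8.87, 15.7 and 15.6, a change of 1.70 (SE 0.22, limma adjusted p 4.65e-07) beside 1.05. CCND3 stood at 0.94 beside 0.69, and CCNE2 at 0.96 beside 0.78. CDK4 stood at -0.21 beside -0.41 and RB1 at -0.15 beside -0.25; RB1 was the gene whose groups overlapped. CCND2, CCNE1, CDK6 and E2F1 stood at 1.30, 0.97, -1.09 and -0.58, each within 0.10 of the change among controls.

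Ratios between paralogues were taken within each library, and 12 exact permutation tests of 4 against 4 libraries were run, for which the smallest possible p is 0.0286. The log2 ratio of CCND3 to CCND2 was lower with the inhibitor by 0.45 at high MYC (from -4.39 ± 0.13 to -4.84 ± 0.18) and by 0.24 at medium MYC (from -4.95 ± 0.11 to -5.19 ± 0.079; SD, n = 4). Each had an exact two-sided p of 0.0286, which is 0.0490 after adjustment over the 12 tests. The same ratio was also lower at medium than at high MYC, by 0.56 among controls and by 0.36 under the inhibitor, with the same exact p. CDK6 fell against CDK4 from high to medium MYC, by 0.62 among controls and 0.89 under the inhibitor (exact p 0.0286, adjusted 0.0490 for each). With the inhibitor that kinase ratio was 0.14 higher at high MYC (exact p 0.0286, adjusted 0.0490), whereas at medium MYC it was 0.13 lower and did not pass (exact p 0.0857, adjusted 0.129). CDK4 made up 87.8% ± 0.26 of the mRNA of these kinases per length in high MYC controls and 91.7% ± 0.29 in medium MYC controls. For CCNE2 to CCNE1 none of the 4 comparisons passed, with exact p from 0.114 to 0.971. CCNE1 made up 45.8% ± 2.10 of E-type cyclin mRNA per length in high MYC controls and 48.9% ± 3.71 in medium MYC controls.

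Other G1 regulators were read from a list of 23 genes, of which 22 were tested and CCND1 was too low. Among controls 10 were higher and 8 lower at medium MYC, with a median log2 change of 0.094 beside 0.017 over all tested genes, of which 38.9% were higher and 37.3% lower. CDK2, the kinase of the E-type cyclins, went from 525 ± 10.0 to 1927 ± 23.2 (SD, n = 4), a log2 difference of 1.87 (SE 0.04, limma adjusted p 1.54e-20). CDKN1A (p21), a relative of CDKN1B, was higher by 0.42, CDKN2D (p19), a relative of CDKN2C, by 0.71 and E2F8, a repressor E2F, by 1.04. E2F5 was lower by 1.04 on the log2 scale, and the E2F partners TFDP1 and TFDP2 by 0.92 and 0.94. With the inhibitor at high MYC 8 of 22 fell and none rose in limma (3 were higher at an unadjusted p under 0.05), with a median of -0.082 beside -0.020 over all genes and 16.3% of all genes lower, among them CDKN2D (-0.54), E2F7 (-0.41) and CDK2 (-0.33). At medium MYC 2 rose, TFDP2 by 0.30 and CDKN1A by 0.13, and 2 fell, E2F8 by 0.25 and CDK2 by 0.16, beside 11.7% and 14.6% of all tested genes. The difference in response passed for 2 of 22, E2F7 (-0.29) and TFDP2 (-0.34), a share near the 8.63% of all tested genes.

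Of 31 genes of DNA replication and S phase entry that E2F factors control, 20 were higher and 5 lower at medium MYC among controls, with a median of 0.13. Over all tested genes 38.9% were higher and 37.3% lower, 76.2% in all, so the 25 called are near the background in number. The ribonucleotide reductase subunit RRM2 was higher by 1.06, thymidine kinase TK1 by 1.04 and the chromatin assembly subunit CHAF1B by 0.65. The uracil glycosylase UNG was lower, with a change of -1.05. E2F1 itself, which is not on this list, was also lower. With the inhibitor at high MYC 19 of 31 fell and none rose in limma, nor was any higher at an unadjusted p under 0.05 (median -0.14), among them RRM2 (-0.42) and PRIM1 (-0.34), a DNA primase subunit. Of all tested genes 16.3% fell there. At medium MYC 10 fell and 2 rose (median -0.074), beside 14.6% and 11.7% of all tested genes, the risers being CDC6 (0.17) and ORC1 (0.17), which license replication origins. The difference in response passed for 7 of 31, all lower, beside 5.33% of all tested genes lower, among them RRM2 (-0.38), PRIM1 (-0.34) and CDC6 (-0.28).

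Of 20 genes of mitosis, 16 were higher and 1, BUB1B (-0.24), lower at medium MYC among controls, beside 38.9% and 37.3% of all tested genes, with a median of 0.41, and the proliferation marker MKI67 was higher by 1.07 (SE 0.02, limma adjusted p 9.95e-20). With the inhibitor 17 of 20 fell at high MYC (median -0.21) and 4 of 20 at medium MYC (median -0.026), beside 16.3% and 14.6% of all tested genes, so the count at medium MYC was near the background. None rose in limma, and at an unadjusted p under 0.05 the risers were 0 at high and 1 at medium MYC. PLK1, a mitotic kinase, fell by 0.37 on the log2 scale at high MYC and by 0.12 at medium MYC, and MKI67 by 0.24 and 0.10. The difference in response passed for 10 of 20, all lower, beside 5.33% of all tested genes lower, with TTK at -0.33, UBE2C at -0.31 and CCNB1 at -0.29.

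**Figure D4:**
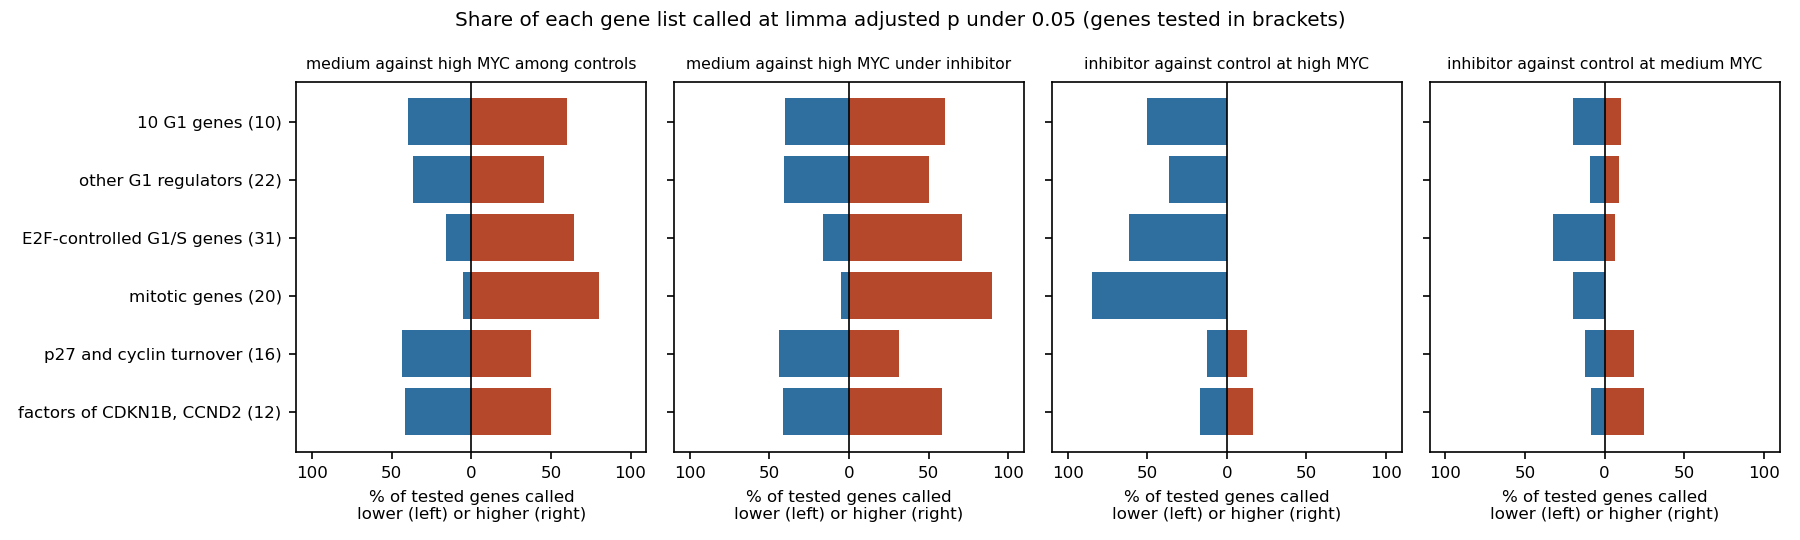
Share of the tested genes of each list (y, number tested in brackets) that passed at a limma adjusted p under 0.05, lower to the left and higher to the right (x, percent), in 4 comparisons. Most replication and mitosis genes point right between MYC levels (20 of 31 and 16 of 20 among controls) and left with the inhibitor at high MYC (19 of 31 and 17 of 20); the 10 G1 genes split 6 to 4 between MYC levels.

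The proteins p27, cyclin D and cyclin E are also controlled by degradation, which mRNA does not show. Of 16 genes of their turnover, 6 were higher and 7 lower at medium MYC among controls (median -0.081), beside 76.2% of all tested genes called. SKP2, which marks p27 for degradation, was lower by 0.40 on the log2 scale there, while CDKN1B was higher. With the inhibitor SKP2 fell by 0.22 at high MYC and by 0.16 at medium MYC, and FBXW7, which marks cyclin E, rose by 0.12 and 0.17. In all, 2 of 16 rose and 2 fell at high MYC (median -0.023), 3 rose and 2 fell at medium MYC (median 0.012), shares near the 26.8% and 26.3% of all tested genes called. No difference in response passed in limma for these 16, of which 4 had an unadjusted p under 0.05.

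Transcription factors known to act on CDKN1B or CCND2 were read from 14 symbols, of which 13 were matched and 12 tested. Among controls 6 were higher and 5 lower at medium MYC (median 0.14), beside 76.2% of all tested genes called, with STAT5A higher by 1.90 and STAT5B by 1.28, and FOXO3 at -2.29 and the MYC antagonist MNT at -1.30. With the inhibitor BACH2, a B cell repressor, rose by 0.75 at high MYC and by 0.81 at medium MYC, among 2 risers and 2 fallers at high MYC (median 0.019) and 3 risers and 1 faller at medium MYC (median 0.11). Of all tested genes 26.8% and 26.3% were called in these comparisons. At medium MYC FOXO4 rose by 0.52, MXD1 by 0.48, and STAT5B fell by 0.69. The difference in response passed for FOXO4 (-0.54) and STAT5B (0.46), 2 of 12, beside 8.63% of all tested genes.

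For each of the 10 genes, the genes of most similar profile were sought by Pearson correlation of log2 values over the 16 libraries among genes with a mean of at least 50. The 16 libraries fall into 4 groups, so a high r mostly reflects the group means and is given as a description. CCND2 was most like ENTPD1 (r = 0.999), CDK6 most like NAA50 (0.996), CCNE2 most like IFIT3 (0.989) and CDKN1B most like CREBRF (0.988). CCND3 was nearest to JUP (0.985), E2F1 to WDR33 (0.983), CDK4 to PSME4 (0.981) and CCNE1 to SETD5 (0.971). CDKN2C was nearest to CCDC15 (0.965) and RB1 to MBNL1 (0.956). An r of at least 0.95 was reached by 1744 genes for CDK6 and 1690 for CCND2, but by 40 for CDK4, 8 for CDKN2C and 2 for RB1.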

How the data were processed

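RNA from 16 samples was read on an Illumina HiSeq after Nugen cDNA synthesis, per the labels' protocols. The authors deposited a signal per Ensembl gene, named normalized counts in the file's name. The submitters' processing notes list STAR 2.5.2a, RSEM 1.2.31, DESeq2 1.16.1 and GRCh38, without roles; whether counting used strand is not given in the sources used here. All values in a library were whole multiples of 1 step (100% within 1e-06), with steps equivalent to size factors of 0.858 to 1.33; whole reads were taken as recovered for 14 libraries, and depth covers counting error only.

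Genes were tested with limma 3.58.1 (R 4.3.3), two-sided, on log2(value + 1) with a mean trend, with 4 group means in one fit of all 16 libraries and 13765 genes (mean at least 10). Paralogue ratios had exact permutation tests (SciPy 1.17.1). The fit was also run on simulated data, and no result of that run is given or used here. Symbols matched 56948 of 58051 identifiers; positions and exons are from GENCODE release 29. The 10 genes and all lists were chosen with earlier results of these data known. Of each list, up to 3 genes higher and 3 lower per comparison with the largest called change and a mean of at least 50 could be named, besides MYC, CCND1, CDK2, CDKN1A, SKP2 and MKI67; overlapping genes, and markers, are named beside results they touch. Alternatives were 4 other scalings, pseudocounts of 0.1 and 10, other filters, no mean trend, only the groups compared, a replicate block, GC correction, edgeR 4.0.16 and DESeq2 1.42.0 on the 14 libraries, and each library left out. limma on those 14 was added after seeing the data.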

Additional observations from a re-analysis of the deposited data

Results flagged for a closer look

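One value stood apart from its group. CCND2 in medium MYC control replicate 2 had a normalized count of 13478, while the other 3 libraries lay between 13635 and 13655. This was the only one of 52 groups of 4 whose gap to the nearest library passed Dixon's critical value, and chance passes about 1 group in 20.

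In limma, the effect of the inhibitor depended on the MYC level for 1 of the 10 genes, near the 8.63% of all tested genes that passed, and for several listed genes. The difference, high minus medium MYC, was -0.21 for CDK4. It was -0.29 for E2F7 and -0.34 for TFDP2, and -0.28 for CDC6, -0.38 for RRM2 and -0.34 for PRIM1 among replication genes. Among transcription factors it was -0.54 for FOXO4 and 0.46 for STAT5B. Among mitosis genes it was -0.14 for MKI67, -0.29 for CCNB1, -0.31 for UBE2C and -0.33 for TTK.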

How the results depend on the processing

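Of 1575 recomputed changes of the 10 genes, 1508 kept direction and side of the threshold, 24 lost a call, 9 gained one and 34 changed sign. The sign changes were in 6 results, none of them called. Of 29 called results, 5 lost their call in some alternative. The count at high MYC was 3 under quantile normalization against 5. At medium MYC it was 5 after GC correction, 1 with DESeq2 and 0 with limma on 14 libraries (only 2 in the inhibitor group, chosen after seeing the data) against 3; the fewer libraries are part of these 2 alternatives. Over all genes edgeR called 3553, 2683 and 839 and DESeq2 2901, 2252 and 674 at high MYC, at medium MYC and for the difference, against 3689, 3618 and 1188. Leaving out 1 library gave 4 to 6 at high MYC, 3 to 4 at medium MYC, 1 for the difference in response and 10 for both comparisons of MYC levels. Same-numbered libraries had residual correlations of -0.154 to 0.239. Only that of replicate 4 between MYC levels among controls (0.239) was above 0.1. With so few libraries per group this neither shows nor excludes that the numbers pair them, and the main fit did not pair them. With the replicate block the counts were 4 at high MYC, 3 at medium MYC, 1 for the difference, and 10 and 10 between MYC levels. For CDK6 at high MYC the sign turned with TMM factors (-0.00087) and GC correction, with or without the block (-0.011), and leaving out 1 library gave -0.013 to 0.042. For E2F1 at high MYC it turned with equal totals (0.0015), quantile normalization (0.019), GC correction with or without the block (0.071) and edgeR (0.0016), and leaving out 1 library gave -0.073 to 0.035. At medium MYC E2F1 was -0.0045 with TMM factors and -0.041 to 0.040 without 1 library, and RB1 was 0.0099 under quantile normalization. For the difference in response CCNE1 was 0.013 under quantile normalization, 0.015 with limma on 14 libraries, 0.040 with edgeR, 0.027 with DESeq2 and -0.083 to 0.11 without 1 library, and E2F1 was 0.0043 under quantile normalization and -0.074 to 0.034 without 1 library. The ratio of CCNE2 to CCNE1 between MYC levels under the inhibitor was 0.032 with a pseudocount of 10 against -0.0056. The cause of these changes was not tested. CDKN1B and CDKN2C had 8 to 26 reads per high MYC library.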
